A study of Homo sapiens with 6 samples.

Results

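COL3A1 and COL5A2 are fibrillar collagen genes that lie next to each other on human chromosome 2 and are transcribed toward each other. ZNF469 binding at both genes, in the space between them and in 50 kb on either side was described from CUT&RUN, a method in which an antibody steers a nuclease to its target so that the DNA around the target is cut out and sequenced. The regions were chosen by position: every region of the deposited peak lists on chromosome 2 from 188924373 to 189275312 (350.9 kb, hg38) was taken. The list for full-length ZNF469 had 28 regions there of 19108 in all, and the list for the zinc finger deletion had 0 of 54. Of the 28 regions, 6 lay in COL3A1, 2 between the genes, 16 in COL5A2, 1 before COL3A1 and 3 after COL5A2. The locus was taken up because earlier results of these data showed many regions there, so its counts and pileups are given as a description without a test.

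The cells were LX-2, an immortalized human line of hepatic stellate cells, the cells that lay down collagen in an injured liver. They carried a piggyBac transposon with a doxycycline-inducible, HA-tagged transgene for full-length ZNF469 (clone3.4 in the labels) or for dZF, a ZNF469 with most of its zinc fingers deleted (clone3.1). All cells were grown with an ascorbic acid derivative and induced with 1 µg/mL doxycycline for 24 h, and an antibody against ZNF469 was used for all 6 libraries, 3 for each construct. Libraries of uninduced cells or without the antibody were not analysed here. The labels do not tell whether a clone name means a clone of cells or of plasmid, and the construct cannot be told apart from other differences between the lines. The lists hold no gene expression, so the identity of the cells was not checked against marker genes. The authors had joined the 3 libraries of a construct into 1 list, so each value below stands for 3 pooled libraries and has no replicate error.

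Fibrillar collagens form the rope-like fibres that give connective tissue its strength. COL3A1 encodes the chain of type III collagen, which is abundant in pliable tissues and early scars and is deposited together with type I collagen in liver fibrosis. COL5A2 encodes a chain of type V collagen, a minor component that helps to start type I collagen fibrils and limits their diameter. ZNF469 is a large C2H2 zinc finger protein, and its loss causes brittle cornea syndrome, a disorder of connective tissue. AP-1 is the family of FOS and JUN dimers that bind the bases TGACTCA, whose reverse complement is TGAGTCA.

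In GENCODE, COL3A1 (ENSG00000168542.17, plus strand) runs from 188974373 to 189012746, which is 38.4 kb with 51 exons. COL5A2 (ENSG00000204262.14, minus strand) runs from 189031898 to 189225312, which is 193.4 kb. Its canonical transcript has 54 exons, starts at 189179761 and covers 147.9 kb. Another transcript starts farther upstream, at 189225312, ends at 189085170 and covers 140.1 kb. The 3′ ends face each other across 19.15 kb. RefSeq lets COL5A2 begin farther out, at 189441111, beyond the stretch described here.

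The sequences at the highest summit of each gene and at every AP-1 site inside a region are shown so that the bases under the tallest signal and around each AP-1 match can be read. All are hg38 reference sequence, given 5′ to 3′ on the strand of the gene they lie in and on the plus strand outside the genes. In the COL3A1 sequence the capitals mark exon 35, and in the COL5A2 sequence they mark the bases TGCCAA, an NFI motif. In the other sequences the capitals mark the AP-1 site.
COL3A1, highest summit, chr2:189002100-189002399, plus strand: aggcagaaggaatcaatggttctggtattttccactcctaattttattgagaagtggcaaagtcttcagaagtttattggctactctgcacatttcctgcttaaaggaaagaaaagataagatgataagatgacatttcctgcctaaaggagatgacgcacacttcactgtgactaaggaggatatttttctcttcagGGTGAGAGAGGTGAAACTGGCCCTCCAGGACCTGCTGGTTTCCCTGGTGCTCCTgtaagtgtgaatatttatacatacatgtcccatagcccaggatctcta
COL5A2, highest summit, chr2:189096978-189097177, minus strand: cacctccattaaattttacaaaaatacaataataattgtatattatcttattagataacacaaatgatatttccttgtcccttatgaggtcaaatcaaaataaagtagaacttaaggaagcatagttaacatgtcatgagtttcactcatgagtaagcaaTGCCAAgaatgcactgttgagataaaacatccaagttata
Before COL3A1, 5 bp from the summit, chr2:188969428-188969458, plus strand: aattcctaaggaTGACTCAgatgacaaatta
COL3A1 region 5, 114 bp from the summit, chr2:189000128-189000158, plus strand: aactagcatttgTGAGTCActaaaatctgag
Between the genes, 4 bp from the summit, chr2:189018780-189018810, plus strand: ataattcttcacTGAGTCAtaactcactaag
Between the genes, same region, 151 bp from the summit, chr2:189018927-189018957, plus strand: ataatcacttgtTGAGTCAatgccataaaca
COL5A2 region 1, 99 bp from the summit, chr2:189037742-189037772, minus strand: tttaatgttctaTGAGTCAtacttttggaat
COL5A2 region 13, 39 bp from the summit, chr2:189210363-189210393, minus strand: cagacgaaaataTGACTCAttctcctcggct
COL5A2 region 13, 166 bp from the summit, chr2:189210490-189210520, minus strand: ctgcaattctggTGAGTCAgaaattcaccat
COL5A2 region 15, 9 bp from the summit, chr2:189221992-189222022, minus strand: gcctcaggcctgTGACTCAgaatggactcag

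For each region, 3 quantities were read from the lists. The pileup is the whole number of sequenced fragments that the peak caller stacked at the summit, the highest point of the region. A fragment here is the unit that the caller counted. The caller's options are not given, so this may be a read pair or 1 read of a pair. The local background is the mean pileup over the 10 kb around the summit, counted from the same pool of fragments. The fold is (pileup + 1)/(background + 1), so that a summit in a broadly covered neighbourhood has a high background and a low fold. Limits in parentheses after a pileup are its exact 95% Poisson limits, a measure of counting error that leaves out variation among libraries. They would be too narrow if both reads of a pair were counted. Over all 19108 full-length regions the median pileup was 20 fragments (range 4 to 277), the median background 1.82 fragments (0.865 to 44.04) and the median fold 7.36.

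Regions were dense across both genes. The stretch held 0.798 regions per 10 kb, against 0.0619 per 10 kb of genome, and regions covered 4.24% of it, against 0.302% of the genome. Along the genome, 8791 adjoining stretches of the same length held a median of 1 region and at most 23. This stretch was drawn around the genes and was taken up because many regions were already known there. The others were not, so the comparison is only a description. Both genes held a region, as did 33.7% of 20007 protein-coding genes. The median pileup of the 28 regions was 44 fragments and their median background 6.195 fragments. A pileup above the median of the whole list was found in 25 of the 28 regions and a background above it in all 28, whereas 24 of the 28 had a fold below the median.

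**Figure D1:**
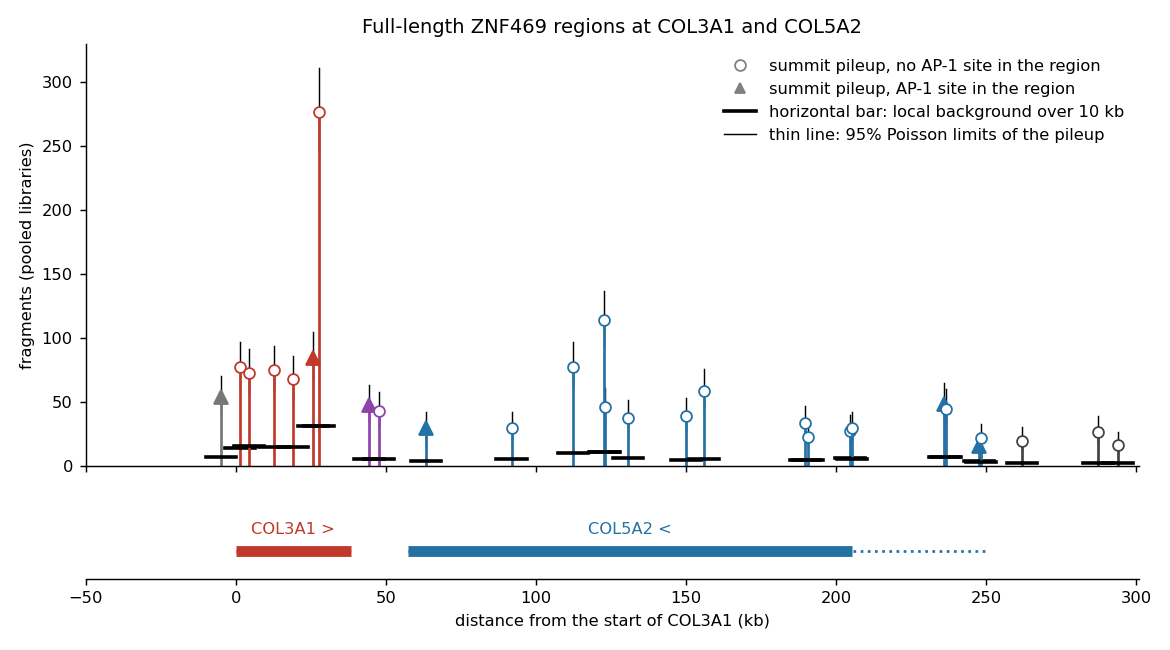
Summit pileup of the 28 full-length regions (circles without and triangles with an AP-1 site, in fragments of 3 pooled libraries) by distance from the COL3A1 start in kb, with local backgrounds as horizontal bars and 95% Poisson limits as thin lines. Arrowheads give the direction of transcription and the dotted line marks COL5A2 upstream of its canonical transcript. The highest summit, 277 fragments, lies in COL3A1, and the backgrounds of its 6 regions are above those of the other 22.

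In COL3A1 the 6 regions were spread along the gene at 1.56 per 10 kb and covered 3322 bp, or 8.66% of its length. Their median pileup was 76.5 fragments, and all 6 were among the 100 highest pileups of the full-length list. Counted from its start, region 1 (188975727 to 188975971) lay in intron 1, 1.354 kb inside the gene, with 78 fragments (61.7 to 97.4). Region 2 (188978687 to 188979145), also in intron 1, had 73 fragments (57.2 to 91.8). Region 3 (188986960 to 188987315), over exon 5 and the introns beside it, had 75 fragments (59.0 to 94.0). The limits of these 3 pileups overlapped.

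Region 4 (188993458 to 188994051) had 68 fragments (52.8 to 86.2). Its summit lay in intron 16, and only 16 of its 594 bp were in exons 16 and 17. Region 5 (188999911 to 189000298), in intron 32, had 85 fragments (67.9 to 105). Region 6 (189001536 to 189002815) was the widest of the locus at 1280 bp and reached 277 fragments (245 to 312) at position 189002249. That was the highest pileup among all 19108 full-length regions. The next highest in the list had 225 fragments, with an upper limit of 256, so the limits of the highest pileups overlapped. Their order was not tested. Within COL3A1 region 6 stood apart, since the other 5 ranged from 68 to 85 fragments.

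Region 6 spanned exons 34 and 35, and its summit was in intron 34, 49 bp from exon 35. Both exons are 54 bp long, and 7 of 18 codons in exon 34 and 6 of 18 in exon 35 begin with GG, the bases that begin each codon of glycine, the residue that recurs along a collagen helix. The bases acatttcctgc occur at 189002189 to 189002199 and again at 189002232 to 189002242, on the same side of the summit and 43 bp from start to start. With 1 mismatch the repeat extends to 18 of 19 bases, acatttcctgcttaaagga and acatttcctgcctaaagga. This repeat was noticed after the sequence had been read. An exact repeat of 11 bp or longer in the 200 bp around the summit was present in 5.09% of all full-length regions, with a median longest repeat of 7 bp. In the locus 3 of the 28 regions had one.

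All COL3A1 summits lay over high backgrounds. A background counts the fragments of the region itself, so cover beyond the region cannot be read from it alone. This limit weighs most on regions 5 and 6, whose windows both include the highest summit. Local backgrounds in the gene ran from 14.7 to 31.9 fragments, which is 16.96 to 36.84 times the lowest background of the list, and the 10-kb windows behind them together took in 85.7% of the gene. The 10 kb around the highest summit held 3065 fragments, and that lowest background corresponds to 84.0 in the same length. Whether the lowest background is a count over 10 kb or a floor set by the caller is not known. A background of 10 fragments or more was found at 9 regions of the locus, 6 in COL3A1 and 3 in COL5A2, and at 0.33% of all regions (63 of 19108). These 9 were all such regions on chromosome 2.

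The folds in COL3A1 were correspondingly modest, with a median of 4.56. Regions 5 and 6 show how pileup and fold part: their summits were 2.22 kb apart, so their windows largely shared the same fragments and their backgrounds were 31.9 and 31.6 fragments. With 85 fragments at the summit region 5 had a fold of 2.62, the lowest of the locus, and with 277 fragments region 6 had a fold of 8.54. The first 4 regions had folds of 4.302 to 5.04.

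**Figure D2:**
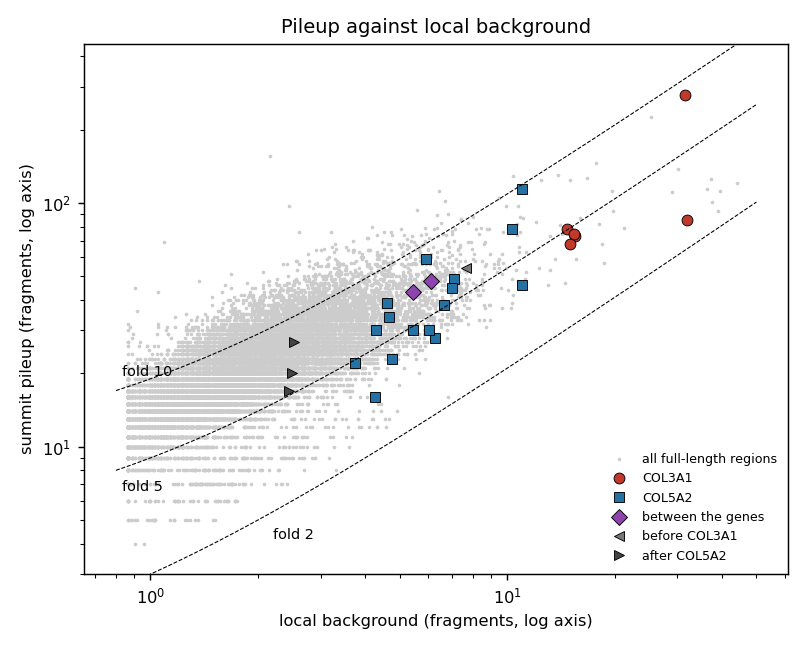
Summit pileup against local background, both in fragments on log axes, for all 19108 full-length regions (grey) and the 28 regions of the locus (coloured by place), with dashed lines of equal fold. COL3A1 regions sit at backgrounds of 14.7 to 31.9, COL5A2 regions at 3.75 to 11.0, and 24 of the 28 have a fold below the median of 7.36.

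Most of the regions lay in introns. Exons make up 14.3% of COL3A1 and 6.17% of the bases its regions covered. In COL3A1 3 of 6 regions touched an exon, and 0 summits lay in one. The microRNA genes MIR1245A and MIR1245B lie 526 bp from region 2, and MIR3606 lies 1579 bp from region 4, all outside the regions.

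Between the 3′ ends of the genes, 2 regions covered 947 bp of the 19.15 kb. The first (189018442 to 189018987) began 5.70 kb past the end of COL3A1 and had 48 fragments (35.4 to 63.6) over a background of 6.11. The second (189021977 to 189022377) ended 9.52 kb short of COL5A2 and had 43 fragments (31.1 to 57.9) over 5.44. The limits of the pair overlapped. Their pileups were below those of all 6 COL3A1 regions and above the COL5A2 median of 36 fragments, and their folds of 6.89 and 6.83 were higher than those of 5 of the 6 COL3A1 regions.

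The covered part of the space was set off from both genes. The last COL3A1 region ended 9.93 kb before the end of that gene, and the first COL5A2 region began 5.59 kb inside the other. The 3′ ends themselves, where the genes face each other, thus had 0 regions. The space contains 2 AP-1 sites, and both lie in its first region, 4 and 151 bp from the summit.

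COL5A2 held 16 regions at 0.827 per 10 kb, and they covered 8884 bp, or 4.59% of the gene. Of the protein-coding genes, 12 had 16 or more. The count depends on the bounds and the filter, with 31 regions between the RefSeq bounds and 7 within the GENCODE bounds at an IDR (irreproducible discovery rate) of 0.01 or lower. The pileups ranged from 16 to 114 fragments with a median of 36, and the backgrounds from 3.75 to 11.0 fragments with a median of 5.98. Only 2 of the 16 regions reached the 68 fragments of the lowest COL3A1 region, and those were the ones among the 100 highest pileups of the list. All 16 backgrounds were below the lowest of COL3A1.

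The highest pileups of COL5A2 lay between introns 5 and 9 of its canonical transcript. Counted from the 3′ end, region 4 (189096731 to 189097304), over exon 6 and intron 6, had 114 fragments (94.0 to 137), rank 13 of the list, with a background of 11.0 and a fold of 9.55. Region 5 (189097353 to 189097846) in intron 5 began 48 bp farther on, with 46 fragments (33.7 to 61.4) and the same background, and therefore a fold of 3.90. Region 3 (189086008 to 189087273), 1266 bp wide around exon 9, had 78 fragments (61.7 to 97.4) over a background of 10.3. These 3 were the regions of COL5A2 with a background of 10 or more. A lncRNA gene, ENSG00000228073, lies 573 bp from that 114-fragment region and held 0 regions.

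Toward the 3′ end the gene was sparsely occupied. Region 1 (189037491 to 189038009, intron 51) and region 2 (189066106 to 189066335, intron 23) each had 30 fragments (20.2 to 42.8), over backgrounds of 4.295 and 5.44. On the 5′ side of the highest pileups, in intron 2, region 6 (189104793 to 189105540) had 38 fragments (26.9 to 52.2) over 6.63. The limits of these 3 pileups overlapped.

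Intron 1 of COL5A2, 69.1 kb long, held 5 regions. Region 7 (189124167 to 189124546) had 39 fragments (27.7 to 53.3). Region 8 (189129912 to 189130558), 49.2 kb from the canonical start and 2478 bp from the gene of MIR3129, had 59 fragments (44.9 to 76.1) and a fold of 8.65. Regions 9 and 10 (189163850 to 189164376 and 189164682 to 189165068), 305 bp apart, had 34 and 23 fragments. Of these intronic summits region 8 was the highest, though its limits overlapped those of regions 7 and 9.

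At the canonical start of COL5A2 were 2 neighbouring regions of ordinary height. Region 11 (189178570 to 189179247) lay in intron 1, 0.514 kb inside, with 28 fragments (18.6 to 40.5) over a background of 6.28. Region 12 (189179562 to 189179878) covered the start and exon 1, with 30 fragments (20.2 to 42.8) over 6.04 and a GC content of 48.3%. Their folds were 3.98 and 4.41, below the COL5A2 median of 5.42. No region covered the start of COL3A1, where the nearest ones were 4.50 kb upstream and 1.354 kb inside.

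The remaining 4 regions of COL5A2 lay upstream of the canonical start, in the first intron of the transcript that starts farther upstream. Regions 13 and 14 (189210102 to 189210644 and 189210718 to 189211181) were 73 bp apart and about as high as each other, with 49 fragments (36.3 to 64.8) and 45 fragments (32.8 to 60.2). Their backgrounds were 7.09 and 7.03 fragments. Regions 15 and 16 (189221782 to 189222358 and 189222424 to 189222956) were 65 bp apart and had 16 and 22 fragments. They lay 2.95 and 2.36 kb inside the transcript that starts farther upstream. Region 15 had the lowest pileup of the locus.

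Close neighbours were a feature of COL5A2. Of its 16 regions, 10 had another within 1 kb, in 5 pairs, against 12.5% of all full-length regions and 0 of 6 in COL3A1. Joined at 1 kb, COL5A2 would count 11 sites. Summits in COL5A2 were 0.352 to 33.8 kb apart with a median of 10.3 kb, and those in COL3A1 2.22 to 8.17 kb with a median of 6.49 kb. Exons make up 4.62% of the canonical COL5A2 transcript and 4.105% of the bases covered in it, and 0 summits lay in an exon.

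On either side of the genes the density differed, with 0.2 regions per 10 kb before COL3A1 and 0.6 after COL5A2, where RefSeq still places COL5A2. The 1 region before COL3A1 (188969226 to 188969869), 4.50 kb upstream of the start, had 54 fragments (40.6 to 70.5) over a background of 7.66. After COL5A2, 3 regions had 20, 27 and 17 fragments over backgrounds of 2.45 to 2.52, and their summit limits all overlapped. The last of them (189268182 to 189268554) ended 6.76 kb inside the edge of the stretch. The nearest region outside on that side, 0.848 kb beyond the edge, had 31 fragments over 3.00, and the nearest on the COL3A1 side, 53.9 kb beyond the edge, had 17 fragments over 1.23. The median background was 15.4 fragments in COL3A1, 5.77 between the genes, 5.98 in COL5A2 and 2.49 after COL5A2.

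An AP-1 site was present in 6 of the 28 regions (21.4%), against 44.1% of all full-length regions. With all 7 bases within 100 bp of the summit it was present in 4 (14.3%), against 32.3% of all. The distances printed with the sequences run to the middle base of the site. The site of COL5A2 region 1, at 99 bp, thus lay partly outside and was not counted among the 4. AP-1 sites themselves were not scarce in the locus, which held 54 of them, or 1.54 per 10 kb, against 1.57 per 10 kb of genome. Of these 54, 8 lay inside a region (14.8%), and of the 462326 sites in the genome 2.27% did. Regions also covered more of the sequence there, as given above, and the part of that cover in the share of sites was not tested.

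Regions with and without a site were found at high and at low pileups. In COL3A1 only region 5 had a site, 114 bp from its summit, and in COL5A2 regions 1, 13 and 15 had sites. At 54 fragments the region before COL3A1 had a site 5 bp from its summit, and at 16 fragments region 15 of COL5A2 had a site 9 bp away. Of the 10 regions with a pileup of 50 or more, 2 had a site (20%), against 48.5% of the 435 such regions in the whole list. Of the 18 regions with a lower pileup, 4 had a site (22.2%), against 44.02% of 18673. Of the 9 with a background of 10 or more, 1 had a site (11.1%), against 41.3% of 63. Of all regions no richer in GC than the locus median of 35.2%, 42.9% had a site. These shares rest on few regions of 1 locus and were not tested.

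Other motifs were counted in the same way, on both strands, and no motif searched contains another. The RUNX motif TGTGGT was in 9 regions (32.1%), close to the 31.65% of all regions. The NFI motif TTGGCA was in 11 (39.3%, against 24.3%), and within 100 bp of the summit in 8 (28.6%, against 11.35%). NFI factors bind a longer palindrome, of which these bases are 1 arm. Of the 11 regions, 7 lay in COL5A2, and region 4, with 114 fragments, had the motif 64 bp from its summit. Below the list as a whole were the TEAD motif GGAATG, in 5 regions (17.9%, against 35.6%), and the bases CCCTC, in 12 (42.9%, against 64.6%). CCCTC was searched for CTCF but is not its full motif. The SP/KLF motif GGGCGG was in 1 region (3.57%, against 20.3%), region 12 of COL5A2 at the canonical start, and the CRE motif TGACGTCA was in 0, against 1.12%. A short motif marks a match of letters, not a bound factor. The locus had a GC content of 35.1%, and its regions a median of 35.2% against 44.6% over all full-length regions. The part of base composition in these shares was not tested.

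Among the other fibrillar collagen genes the number of regions varied widely. COL1A1, which encodes the main chain of type I collagen, had 8 regions at 4.56 per 10 kb that covered 19.1% of its length, with pileups of 79 to 138 and backgrounds of 21.3 to 44.04 fragments. Its partner COL1A2 had 1 region with 41 fragments. COL5A1, which encodes the partner chain of COL5A2 and is about as long, had 5 regions with 25 to 31 fragments at 0.246 per 10 kb. COL11A1 and COL27A1 had 5 regions each, COL2A1 had 1, and COL5A3, COL11A2 and COL24A1 had 0. An AP-1 site was present in 1 of 8 regions of COL1A1, 3 of 5 of COL5A1, 2 of 5 of COL11A1 and 4 of 5 of COL27A1. It was present in 0 of 1 region of COL1A2 and 0 of 1 of COL2A1. These shares rest on few regions and were not tested. Among the 705 protein-coding genes with 4 or more regions, COL3A1 was at place 6 and COL5A2 at place 23 by the share of length covered. By regions per 10 kb they were at places 8 and 38. COL1A1 was at place 1 in both orders. These genes were not sampled at random, so the order is a description.

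**Figure D3:**
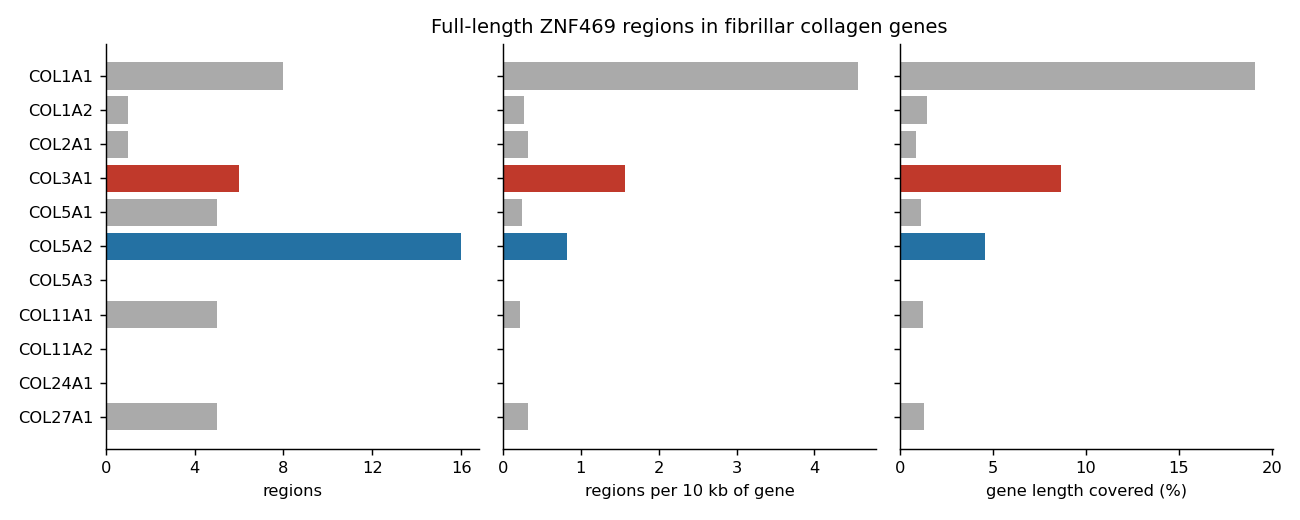
Full-length regions in the 11 fibrillar collagen genes as a count (left), per 10 kb of gene (middle) and as the percentage of gene length covered (right), from 1 pooled list with no replicate error. COL5A2 has the most regions (16), and COL1A1 has the highest density and cover, followed by COL3A1 and COL5A2.

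Being next to another collagen gene did not go with many regions in each case. The head to head neighbours COL4A1 and COL4A2 had 4 and 7 regions, with a highest pileup of 51 fragments. Of 20007 protein-coding genes, 705 had 4 or more regions and 286 had 6 or more, so this pair was not low in count. COL4A3 and COL4A4 had 0 each, COL4A6 had 2 and COL4A5 had 0. COL6A1 and COL6A2 had 0 in either gene and 2 in the 93.1 kb between them. Type IV collagen forms the sheets of basement membranes and type VI beaded filaments, so none of these pairs is fibrillar.

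The dZF list had 0 regions in the locus and 3 on chromosome 2, the nearest 18768.9 kb away. A dZF region was found in 0.05% of protein-coding genes (10 of 20007), so 0 in both genes is what most genes had. The lowest background of the dZF list was 0.625 fragments against 0.865 in the full-length list, a ratio of 1.385. This ratio joins the number of fragments with the length the caller gave each of them, since the backgrounds ran in steps of 88 and 103 bp per 10 kb. Counted in fragments, the lowest backgrounds were 71.0 and 84.0 per 10 kb, a ratio of 1.18. To see how the listed regions would stand in the dZF list, each full-length pileup and background was divided by 1.385, the pileup was rounded down, and the Poisson −log10 p was computed again. It exceeded 7.625, the lowest −log10 p in the dZF list, in 24 of the 28 regions, against 85.3% of all full-length regions. With the ratio of 1.18, an alternative chosen after seeing the data, it was 27 of 28, against 91.8% of all.

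With the ratio of 1.385, 6 of 6 regions passed in COL3A1, 2 of 2 between the genes, 13 of 16 in COL5A2, 1 of 1 before COL3A1 and 2 of 3 after COL5A2. The highest COL3A1 summit came to 200 fragments with this ratio and to 234 with the other. The 4 that did not pass were regions 10, 15 and 16 of COL5A2 and the last region after it, with pileups of 16 to 23 fragments. With the ratio of 1.18 only region 15 did not pass. Both shares are near those of the whole list, and the dZF list was also filtered on the reproducibility between libraries, which this calculation leaves out.

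**Figure D4:**
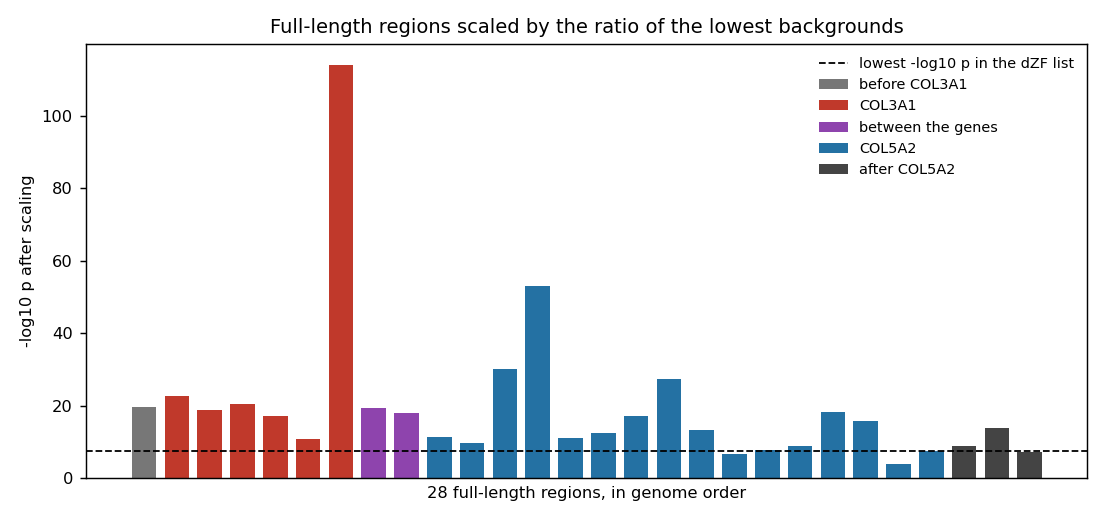
Poisson −log10 p of the 28 full-length regions in genome order after pileup and background were divided by 1.385, the ratio of the lowest backgrounds of the lists. The dashed line is the lowest −log10 p in the dZF list, 7.625, and 24 of the 28 bars are above it.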

How the data were processed

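Peak lists of CUT&RUN with an anti-ZNF469 antibody were analysed, 1 list for each construct. The submitters' processing notes name bcl2fastq, Bowtie2 2.3.4.3, MACS2 2.2.5, R 4.2.1, deepTools 3.5.1 and hg38. The control library, calling options and IDR (irreproducible discovery rate) threshold are not given in the sources used here. The authors pooled 3 libraries per list and kept reproducible peaks. Each deposited record has a score that encodes its IDR, a fold enrichment over local background, a −log10 p-value and a summit offset; the deposited −log10 q-value was not used. From the fold and the −log10 p-value, the whole-number pileup and the background were recovered for all records (the −log10 p was met within 6.942e-05); the procedure was tested on simulated records. Backgrounds under 3 fragments and above the lowest of the list were whole multiples (tolerance 0.02 steps) of 103 bp per 10 kb in the full-length list. In the dZF list they were multiples of 88 bp. Backgrounds were read as means over 10 kb of the pool's own fragments, which was not checked for the lowest value. Depth per library is unknown. Positions, counted from 1, were placed on GENCODE version 44 and the hg38 sequence with Python 3.11.15, NumPy 2.4.6, SciPy 1.17.1 and matplotlib 3.10.9.

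Named genes were COL3A1, COL5A2, genes within the stretch, the other fibrillar collagen genes and other neighbouring collagen pairs. The members and lists were chosen with earlier results of these data known. With no values per library, no test between constructs was made. Alternatives filtered records by fold, pileup or IDR, or changed the flanks, joining distance or gene bounds.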

Additional observations from a re-analysis of the deposited data

How the results depend on the processing

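Of 62 alternatives over 11 results, 49 were planned and 13 chosen after seeing the data. In 41 a count or share stayed within 1.5 times its value, or a median within the 95% Poisson limits of the original median. The other 21 moved the result. By this rule the COL5A2 median counted as kept at an IDR of 0.01 or lower, where it was 49 against 36. Most moves came from ranking by fold, which by its construction places regions with a high background low. In the upper 50% by fold, 4 regions remained in the stretch, 1 in COL3A1, 2 in COL5A2, 0 between the genes and 0 with an AP-1 site. The median pileup was then 277 in COL3A1 and 86.5 in COL5A2, and the covered share 3.34% and 0.631%. In the upper 25% by fold, 1 region remained in the stretch, 0 in COL3A1, 1 in COL5A2, 0 between the genes and 0 with an AP-1 site. The COL5A2 median was then 114 and the covered share 0% in COL3A1 and 0.297% in COL5A2, and COL3A1 had no median. In the upper 25% by pileup, by contrast, 23 regions remained, 6 in COL3A1 and 13 in COL5A2. At an IDR of 0.01 or lower, 16 remained in the stretch and 7 in COL5A2, where they covered 2.27%, while COL3A1 had 5. The 16 are 57.1% of the 28, near the 51.45% of all full-length regions that passed. With RefSeq bounds COL5A2 held 31 regions. No paired analysis was possible because the 3 libraries of a construct were pooled, and for that reason no library could be left out. Pooling, the unstated control and the lack of a depth per library limit all values here to a description of 1 list for each construct.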
